A study of Homo sapiens with 2 samples.

Results

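The VMP1 and MIR21 locus was taken as a window of 150 kb on chromosome 17 (chr17:57780000-57930000, hg19) that holds the whole VMP1 gene and the MIR21 hairpin. Its members were all loops, pairs of different anchors up to 2 Mb apart, with at least 1 anchor overlapping this window. Across both replicates 505 of the 1973472 loops of the genome met this rule, and 17 of the 250222 anchors overlapped the window. The window was chosen because of its loop counts, so these counts are given as a description, and no test compares them with the rest of the genome.

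The data came from HiChIP of the human colorectal carcinoma line HCT116 in 1 condition with 2 replicates. In this assay crosslinked chromatin was cut with MboI and religated, fragments carrying the histone mark H3K27ac were pulled down with an antibody, and paired-end sequencing counted the ligations between 2 anchors. A loop's value is therefore a count of paired-end tags, and a count depends both on how often the anchors met and on how much H3K27ac chromatin each anchor contributed. The sources do not say whether the replicates were separate cultures, and no RNA was measured in this series.

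VMP1 encodes a membrane protein of the endoplasmic reticulum that is needed to form autophagosomes. MIR21 encodes miR-21, a microRNA that is abundant in many carcinomas, colorectal carcinoma included, and that represses tumour suppressors such as PDCD4. Its primary transcript is known to start from a promoter of its own inside the last introns of VMP1, a promoter to which the transcription factor AP-1 has been reported to bind. H3K27ac marks active enhancers and promoters, so an H3K27ac HiChIP map favours contacts that involve such elements. It does not show that each anchor is such an element.

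VMP1 (ENSG00000062716.13_8, plus strand, chr17:57785015-57919616) has 12 exons, and 16 anchors overlapped it. The MIR21 hairpin (ENSG00000199004.1, plus strand, chr17:57918627-57918698) spans 72 bp inside exon 12 of VMP1, past the end of the coding sequence, 133612 bp from the VMP1 start. No anchor covered the hairpin. The nearest anchors ended 2603 bp before it and began 3284 bp after it.

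The mature product is shown because it names what the 3′ end of the locus encodes, with the seed, bases 2 to 8, in capitals as given by RefSeq (GRCh38.p14). Only hsa-miR-590-5p shared this seed among the 2370 mature microRNA names of that table. In hg19 the mature sequence lies at chr17:57918634-57918655.

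hsa-miR-21-5p: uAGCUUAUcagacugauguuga

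The 17 anchors were numbered from 5′ to 3′ along VMP1. Anchor 1 (chr17:57783222-57786615) held exon 1, the starts of 14 of the 20 annotated VMP1 transcripts and the start of PTRH2, a gene for a mitochondrial peptidyl-tRNA hydrolase that runs the other way. Anchors 2 to 6 lay in introns 1 and 2, with exon 2 reaching into anchor 5. Anchor 7 (chr17:57830585-57835277) and anchor 8 (chr17:57837436-57841078) lay in intron 5, anchor 9 in intron 6, and anchor 10 (chr17:57859952-57865626), the widest at 5675 bp, in intron 7 with the smaller anchors 11 to 13. Anchor 14 lay in intron 8 and anchor 15 (chr17:57905285-57909255) in intron 10. Anchor 16 (chr17:57913090-57916024) held exon 11 and the starts of 5 annotated VMP1 transcripts. Anchor 17 (chr17:57921982-57925467) lay past the 3′ end of VMP1.

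The heptamer TGANTCA, the same on both strands, was searched in all anchors because of the reported binding of AP-1 near MIR21. It covers the AP-1 consensus, TGAGTCA or TGACTCA, and also heptamers with A or T in the middle. The 17 anchors held 27 matches in 12 anchors, or 5.83 per 10 kb, against 3.52 per 10 kb over all anchors of the genome. Anchor 7 held 6 matches, a number reached by 1.20% of anchors of similar width, and most of the 6 had A or T in the middle. Anchor 10 held 5, reached by 6.29%, and anchor 15 held 3, reached by 17.7%. Anchor 16 held 1, and 62.3% of anchors of similar width held at least as many. GC content, not matched in these comparisons, was 35.1% in anchor 7 against a median of 40.5% in anchors of similar width. It was 36.4% against 40.1% for anchor 10, 40.3% against 40.8% for anchor 15 and 40.7% against 40.8% for anchor 16. Its effect on the match rate was not tested. From anchors 10, 15 and 16, the anchors of the loops with the highest counts over long distance, 3, 3 and 1 of the matches are shown with 20 bases on each side (hg19, plus strand, heptamer in capitals). A TGAGTCA and a TGACTCA of anchor 10 are not shown. A match describes letters and not a bound site.

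Anchor 10, chr17:57860001-57860047: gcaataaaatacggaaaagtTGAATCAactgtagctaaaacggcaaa
Anchor 10, chr17:57860998-57861044: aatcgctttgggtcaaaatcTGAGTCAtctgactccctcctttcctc
Anchor 10, chr17:57864014-57864060: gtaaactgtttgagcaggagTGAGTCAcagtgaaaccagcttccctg
Anchor 15, chr17:57906654-57906700: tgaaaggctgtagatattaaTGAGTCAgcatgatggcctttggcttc
Anchor 15, chr17:57906806-57906852: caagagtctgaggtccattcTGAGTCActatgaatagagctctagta
Anchor 15, chr17:57908154-57908200: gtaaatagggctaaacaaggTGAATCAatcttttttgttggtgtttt
Anchor 16, chr17:57914573-57914619: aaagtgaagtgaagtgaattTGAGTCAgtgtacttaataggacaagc

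The TCF/LEF heptamer CTTTGAT, searched on both strands because these factors carry WNT signalling in colorectal cells, matched 5 times in the 17 anchors, or 1.08 per 10 kb against 1.74 over all anchors. The core of the motif bound by CTCF, a protein of loop ends and domain borders, matched 0 times on either strand, where all anchors held 0.309 per 10 kb. Of anchors of similar width, from 3.83% (for anchor 14) to 15.5% (for anchor 10) held a match, so most anchors of these widths hold none. Nearly all anchors of the genome ended at a MboI site, so the number of these sites sets how finely an anchor can be cut. Anchor 15 held 19 MboI sites against a median of 9 in anchors of similar width. Anchor 10 held 13 against 12, and anchor 7 held 8 against 10.

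The locus held 282 loops and 521 counts in replicate 1, and 311 loops and 591 counts in replicate 2. The whole series held 1187130 and 1369538 loop counts up to 2 Mb. Replicate 1 gave 46.9% of the counts of the locus (95% Clopper-Pearson interval 43.9 to 49.8) and 46.4% of those of the genome. Both replicates found 88 of the 505 loops, or 17.4%, where the share over all loops was 10.2%. All intervals cover counting error only, since tags without molecular identifiers are not independent molecules.

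Most loops of the locus were single tags, and a small set carried much of the signal. Of the 505 loops 377, or 74.7%, had a summed count of 1. A summed count of at least 5 was reached by 31 loops, or 6.14% (4.21 to 8.60), where the share over all loops was 1.47%. A summed count of at least 10 was reached by 13 loops, or 2.57%, where the share over all loops was 0.162%, and 6 loops reached 20. At the limit itself 5 loops had a count of 5 and 15 had a count of 4. The 31 loops held 44.3% of the counts of the locus, and 30 of them were found in both replicates, a share of 96.8% beside 96.2% of such loops in the genome. Counts at the distance limit were low: the longest loop, of 1.94 Mb, had 0 and 1 counts, and the shortest pair past the limit, of 2.03 Mb, had 1 and 0.

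Much of the signal joined anchors of the window to each other. Loops with both anchors in the window were 92 of 505, and they held 606 of the 1112 counts, or 54.5% (51.5 to 57.5), with 53.6% in replicate 1 and 55.3% in replicate 2. From distance and anchor depth, an expectation described below, 466 counts were expected inside the window. Pairs with both anchors on VMP1 itself, without anchor 17, held 531, or 47.8% (44.8 to 50.7). Of the 31 loops with a summed count of at least 5, 27 had both anchors in the window. The median length over all 505 loops was 259 kb against 174 kb for the genome, and 25.9% were under 100 kb against 39.0%. Among the loops of at least 5 the median was 19.0 kb against 9.73 kb, and 15 of 31, or 48.4%, spanned at least 20 kb, against 19.9% in the genome.

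**Figure D1:**
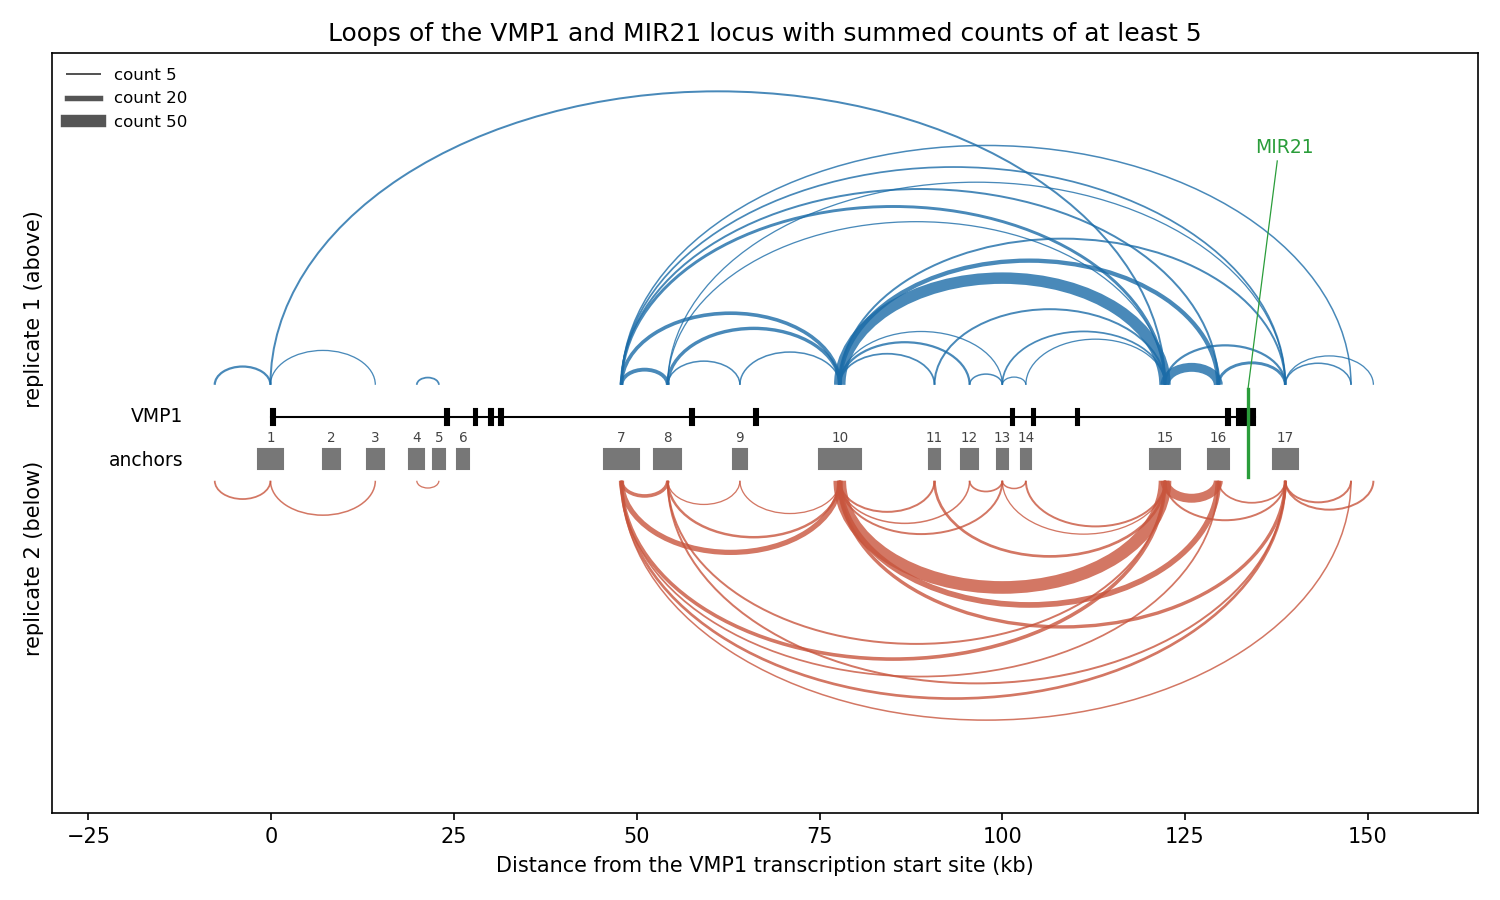
Map of the 31 loops with a summed count of at least 5, against distance from the VMP1 transcription start site in kb. Arcs above the gene are replicate 1 and arcs below are replicate 2, with line width rising with the count and arc height only for legibility. Black boxes are VMP1 exons, grey boxes the 17 anchors and green the MIR21 hairpin. The loop of anchors 10 and 15 is the widest in both replicates, with 46 and 51 counts, and only 1 arc, from anchor 1 to anchor 15 in replicate 1, links the VMP1 start to anchors 7 to 17.

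The anchors of the locus were unequal in depth, with anchors 10 and 15 far above the others. Anchor 10 had 142 and 180 loop counts in replicates 1 and 2, and anchor 15 had 159 and 153. Anchor 16 followed with 86 and 89, anchor 7 with 80 and 93, and anchor 17 with 52 and 77. Anchor 1, at the VMP1 start, had 50 and 48, close to anchor 8 with 44 and 52. The other 10 anchors were lower, between 12 and 31 counts in a replicate, so these ranges overlap neither anchor 1 nor anchors 7, 8, 10, 15, 16 and 17.

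Same-anchor counts, tags with both ends in 1 anchor, were measured apart from the loops and did not enter the rule. Anchor 15 had 91 and 108, the rank of 5 among all anchors of the genome. Anchor 10 had 50 and 40, the rank of 33. Anchor 17 had 9 and 24, anchor 16 had 6 and 21, anchor 8 had 9 and 11, anchor 1 had 7 and 6, and anchor 7 had 6 and 13. Each remaining anchor had at most 3 in a replicate. Thus anchors 10 and 15 led in both measures, while anchor 7, among the first in loop counts, had far fewer same-anchor counts than these. Its sum of 19 still had the rank of 2009 among all anchors of the genome, where the median was 1. Anchors 16 and 17 had more same-anchor counts in replicate 2, with unadjusted p-values of 0.00592 and 0.0135 in a two-sided exact binomial test and an adjusted p of 1 for both over the 10690 anchors tested, of which 0 were called.

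**Figure D2:**
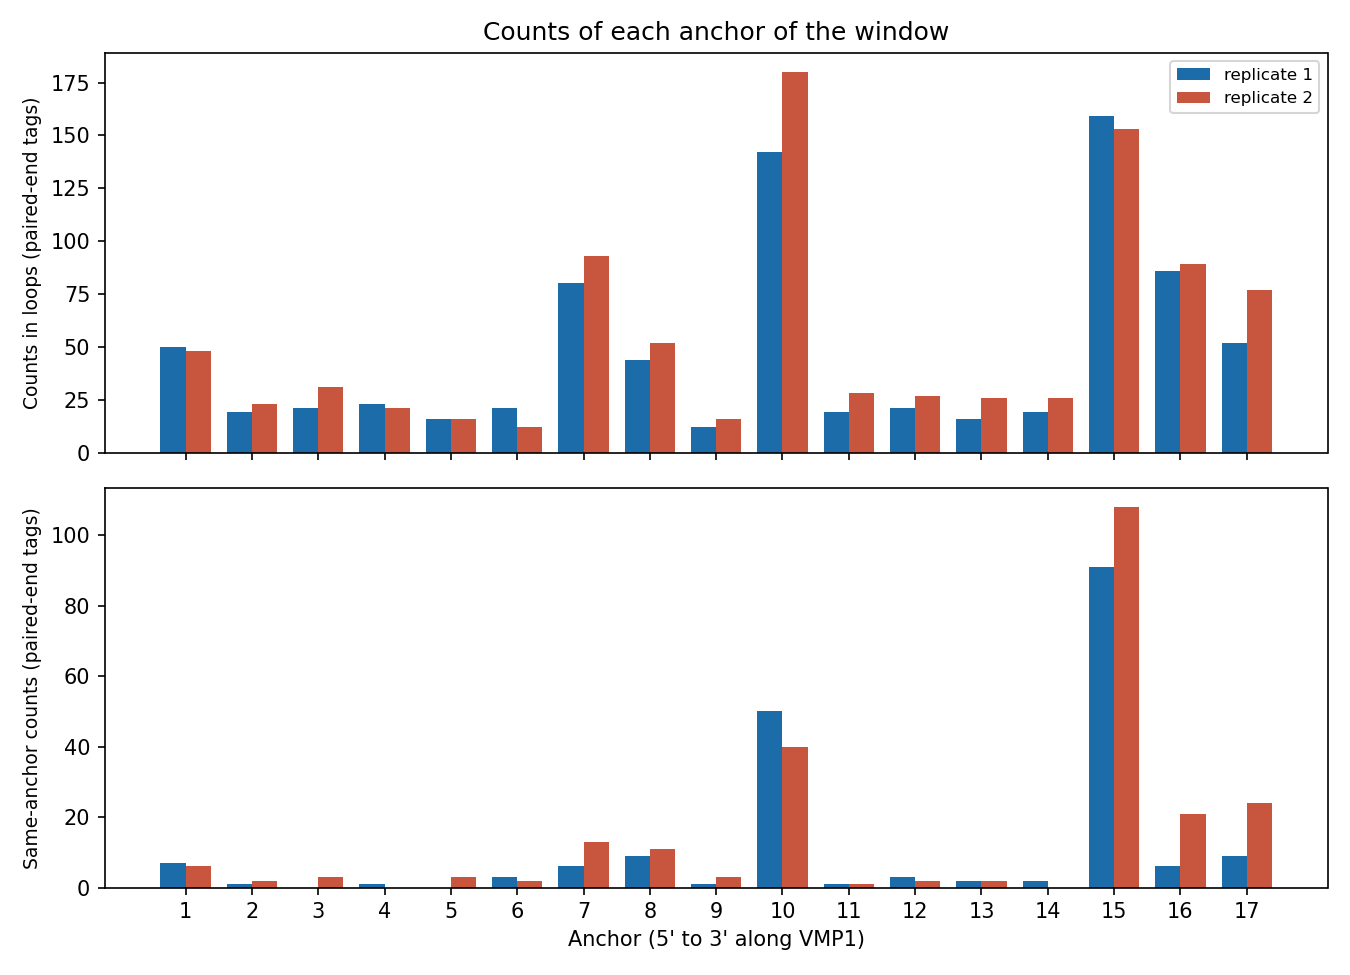
Counts of each of the 17 anchors by replicate, with blue bars for replicate 1 and red bars for replicate 2. The upper panel plots loop counts and the lower panel same-anchor counts, both in paired-end tags. Anchors 10 and 15 are the highest in both panels in both replicates.

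The neighbourhood was deep as a whole. The median loop count of an anchor was 48 in the window, 31 over the 503 anchors within 2 Mb of it, 23 over chromosome 17 and 16 over the genome. Copy number and H3K27ac level both raise the counts of an anchor and cannot be told apart here. Each loop was therefore also set against an expected count for its distance and for the depth of its anchors, with the loop's own tags left out of that depth. In this ratio an anchor that is deep everywhere has a high expectation.

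The loop of anchor 10 (intron 7) and anchor 15 (intron 10), 44.5 kb apart, had 46 counts in replicate 1 and 51 in replicate 2. Its sum of 97 (exact Poisson 95% interval 78.7 to 118) was the highest of all loops of the genome, with rank 1 in replicate 1 and rank 2 in replicate 2. The expected count was 18.7, a ratio of 5.18 (4.20 to 6.32), with 4.94 in replicate 1 and 5.42 in replicate 2. This single loop held 8.72% of the counts of the locus.

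Anchor 16, which holds exon 11 and lies before MIR21, was the next partner of both. The loop of anchors 15 and 16, 7.29 kb apart, had 35 and 35 counts and a ratio of 1.15 (0.898 to 1.45), an interval that includes 1. Its expectation keeps, in the depth of anchor 15, the 97 tags shared with anchor 10. The loop of anchors 10 and 16, 51.8 kb apart, had 15 and 21 counts and a ratio of 4.44 (3.11 to 6.15). It ranked 28 among loops of at least 20 kb in the genome. The shorter of these loops thus had about its expected count, and the longer was well above it in both replicates.

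Anchor 7 in intron 5 joined the same set over longer distance. With anchor 10, 29.9 kb away, it had 12 and 19 counts and a ratio of 1.24 (0.845 to 1.77). With anchor 15, 74.3 kb away, it had 9 and 12 counts and a ratio of 2.79 (1.72 to 4.26). With anchor 17, 90.8 kb away, it had 4 and 8 counts and a ratio of 4.69 (2.42 to 8.19). Among these 3 partners the count was lowest and the ratio highest for the farthest, an order of counts that did not hold once anchor 16 was added. With anchor 16, 81.6 kb away, anchor 7 had 5 and 4 counts and a ratio of 2.70 (1.23 to 5.12). With its neighbour anchor 8, 6.33 kb away, it had 13 and 12 counts and a ratio of 0.975 (0.631 to 1.44), an ordinary value for that distance.

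Anchor 17, past the 3′ end of VMP1 and of MIR21, showed low ratios with its near partners on the 5′ side and higher ones with far partners on that side. With anchor 15, 16.5 kb away, it had 6 and 5 counts and a ratio of 0.386 (0.192 to 0.690), the only one of the 31 loops whose interval lay wholly below the expected count. With anchor 16, 9.17 kb away and on the other side of MIR21, it had 9 and 4 counts and a ratio of 0.597 (0.318 to 1.02). With anchor 10, 60.9 kb away, it had 5 and 11 counts and a ratio of 2.03 (1.16 to 3.30). Anchor 8, 84.5 kb away, gave 2 and 5 counts and a ratio of 5.87 (2.36 to 12.1). These last counts are small, and their intervals are correspondingly wide. The low ratio with anchor 15 rests on an expectation that keeps the tags of the loop of anchors 10 and 15 in the depth of anchor 15.

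The remaining loops of the 15 with the highest sums were the following. Anchors 8 and 10, 23.5 kb apart, had 11 and 7 counts and a ratio of 1.21. Anchors 11 and 15, 31.5 kb apart, had 5 and 8 counts and a ratio of 4.18 (2.22 to 7.14). Anchors 10 and 11 had 4 and 5 counts with a ratio of 0.652, and anchors 10 and 12 had 6 and 3 with a ratio of 0.910. The last to be named is the pair of anchor 1 and an outside anchor within PTRH2 (chr17:57775466-57779130), which had 6 and 4 counts at 7.62 kb and a ratio of 4.06 (1.95 to 7.46). It was the only one of the 15 with an anchor outside the window. The 15 end within a tie, since 3 loops had a sum of 9, among them the loop of anchors 7 and 16 given above, which is not counted in the 15.

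**Figure D3:**
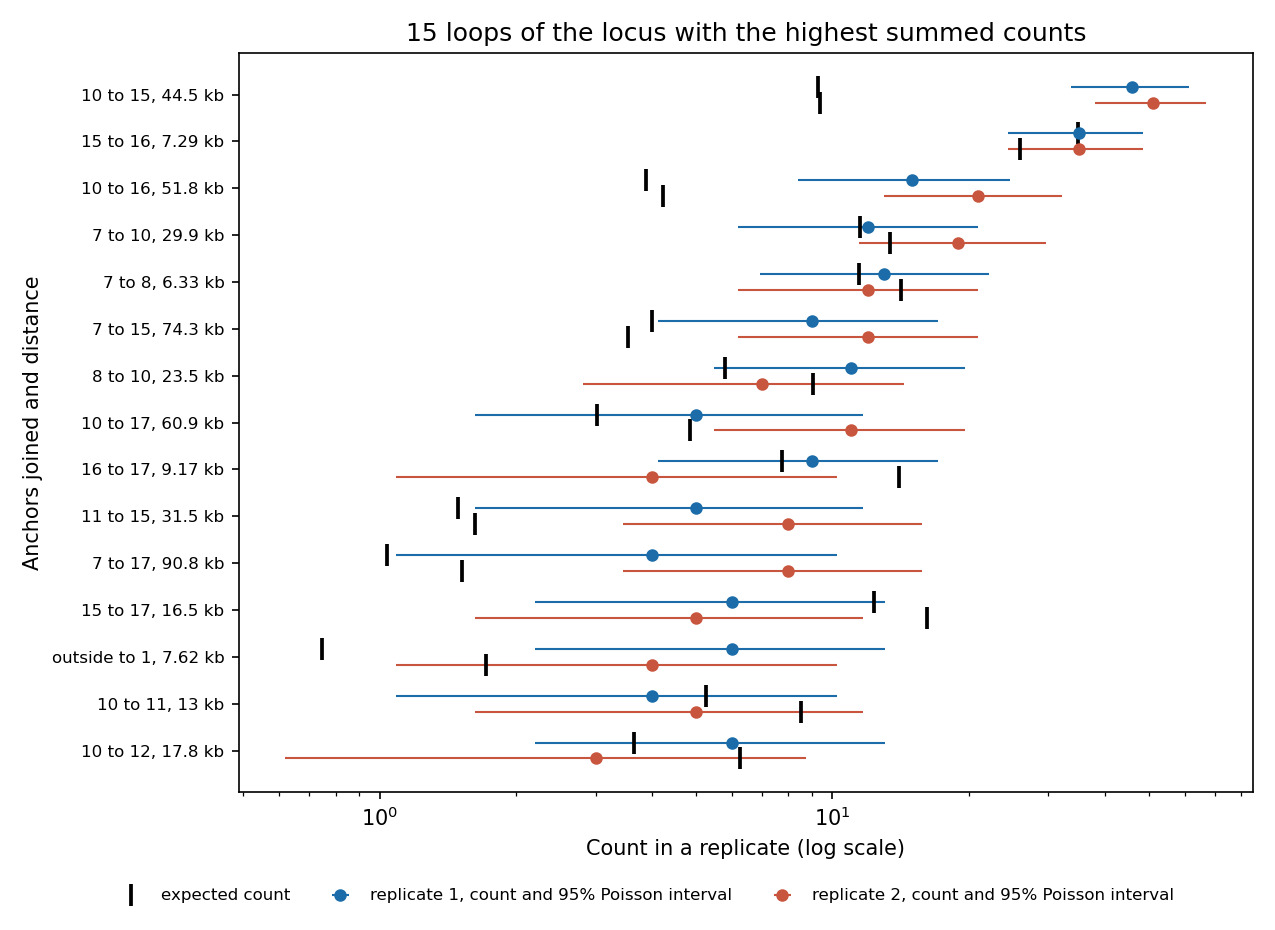
Counts of the 15 loops with the highest summed counts, on a log axis, with the anchors joined and their distance in kb at the left. Blue and red points are replicates 1 and 2, horizontal lines their exact Poisson 95% intervals and black ticks the expected counts for distance and anchor depth. For anchors 10 and 15, and for 10 and 16, both replicates lie to the right of the tick, whereas for anchors 15 and 16 or 7 and 8 the intervals include it.

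Ratios differed with distance within the locus. Of the 15 loops, the 7 of at least 25 kb had ratios from 1.24 to 5.18 with a median of 4.18, and the interval lay wholly above the expected count for 6 of them. The 8 loops under 25 kb had a median ratio of 0.943, with 1 interval above and 1 below. The limit of 25 kb was set after these values were seen. Over all 31 loops of at least 5 counts the interval lay above the expected count in 12, or 38.7%, where the share of such loops in the genome was 26.4%, and the median ratio was 1.45 against 1.81. Of the 12 loops of at least 25 kb 9 had an interval above, or 75.0%, where 47.2% of such loops in the genome did. Of the 19 shorter loops 3 did, or 15.8%, where the share in the genome was 22.6%. Loops of at least 5 counts were picked by their count, in the locus and in the genome alike, which raises their ratios. At equal depth a long pair has a lower expected count and needs a higher ratio to be picked. The median ratio was 1.73 under 25 kb and 2.51 at 25 kb or more in the genome, beside 1.18 and 3.48 in the locus.

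Taking all 136 anchor pairs of the window, whatever their count, 92 had tags. Pairs 20 to 50 kb apart averaged 5.11 summed counts against 0.419 over all such pairs of the genome, or 12.2 times as many. Pairs 50 to 100 kb apart averaged 3.15 against 0.201, or 15.7 times. Pairs under 10 kb apart averaged 9.75 against 1.71, or 5.70 times. The multiple over the genome was larger beyond 20 kb than below it, before any allowance for depth. Without the loop of anchors 10 and 15 the pairs 20 to 50 kb apart averaged 2.98 counts, or 7.10 times the genome. After that allowance, with the pairs' own tags kept in the depth, the 225 counts at 20 to 50 kb stood against 149 expected and the 145 at 50 to 100 kb against 76.4, while 156 stood against 149 under 10 kb and 56 against 73.8 at 10 to 20 kb. Without the loop of anchors 10 and 15 the class of 20 to 50 kb had 128 counts against 117 expected, a ratio of 1.09 (0.910 to 1.30). The tags of that loop stayed in the depth of anchors 10 and 15, which raises the expected counts of their other pairs. This ratio therefore cannot show how much of the excess rested on that loop.

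**Figure D4:**
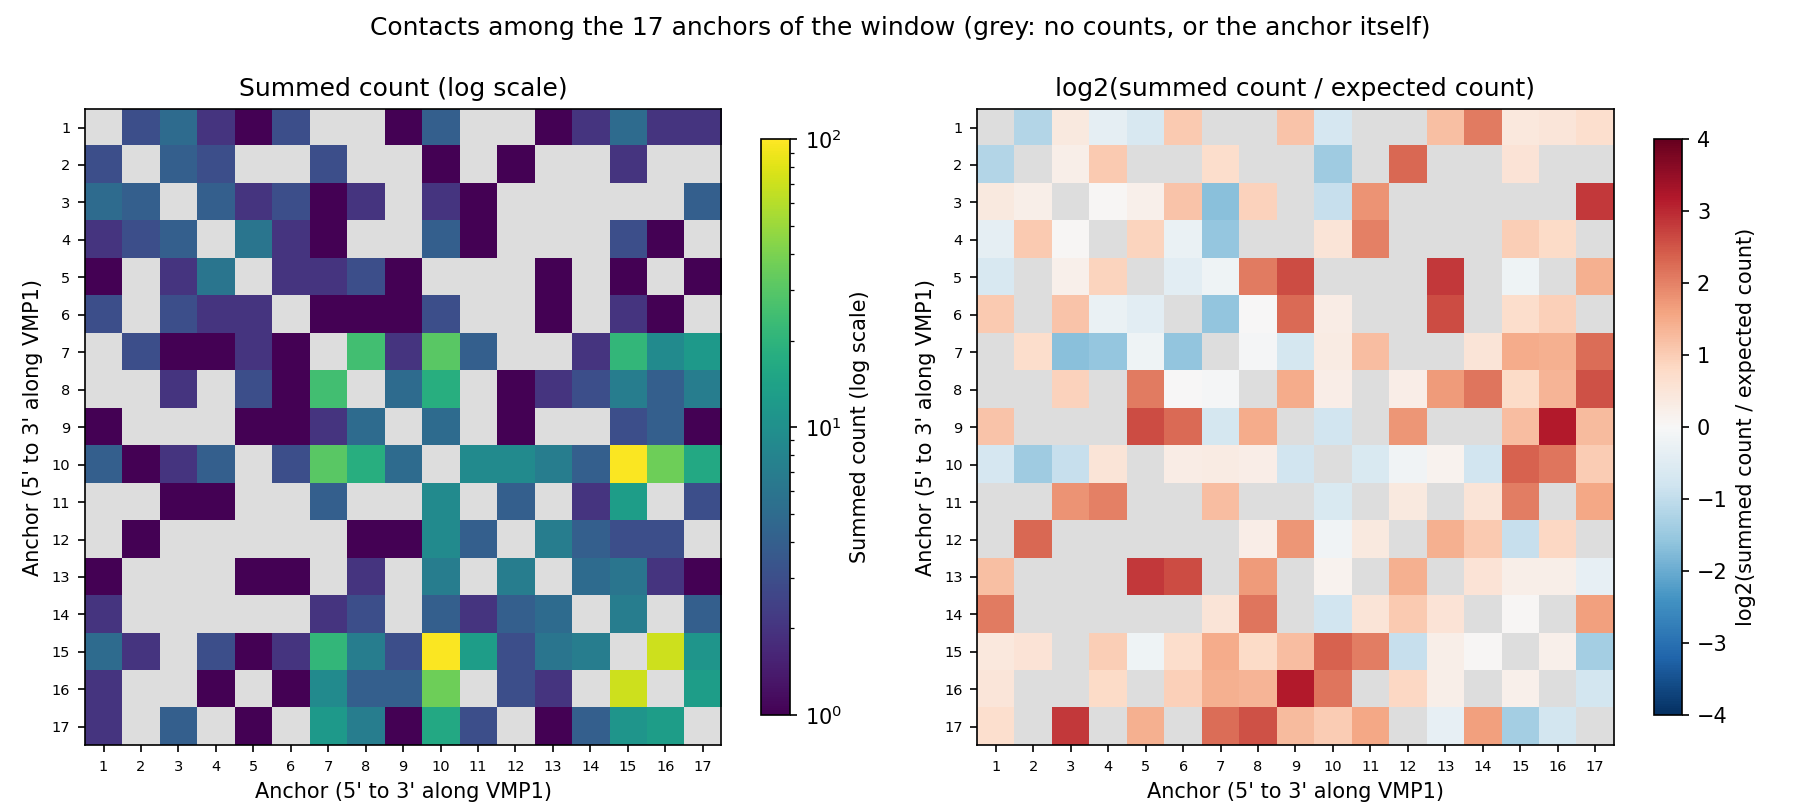
Summed counts among the 17 anchors of the window on a log colour scale (left) and the log2 of the summed count over the expected count (right), with anchors in 5′ to 3′ order on both axes. Grey cells have no counts or are the anchor itself. The highest counts lie among anchors 7 to 17, with 97 for anchors 10 and 15, and many of the extreme ratios at the right rest on 1 to 4 counts.

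Most counts inside the window lay among anchors 7 to 17 and few at the 5′ end, anchors 1 to 6, a division made after the values were seen. It did not divide the anchors by depth. Anchors 9 and 11 to 14 had 28 to 48 summed loop counts each, beside 32 to 52 for anchors 2 to 6. Anchors 7 to 17 shared 503 counts among themselves, or 83.0% of the counts inside the window, with a ratio of 1.41 (1.29 to 1.54) to the expected count. Without the loop of anchors 10 and 15 the ratio was 1.25 (1.13 to 1.37), with the tags of that loop still kept in the depth of its anchors. Anchors 7, 10, 15, 16 and 17 alone shared 316, or 52.1%, and all 10 pairs among them had a summed count of at least 5, from 9 to 97. Anchors 1 to 6 shared 40 counts among themselves, with a ratio of 1.05 (0.750 to 1.43). Between anchors 1 to 6 and anchors 7 to 17 there were 63 counts over 66 pairs, with a ratio of 0.891 (0.685 to 1.14). The contacts of the 5′ end with the rest were thus few but close to the number that distance and depth give.

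The VMP1 start shared few tags with the body of its own gene, a number not distinguishable from the expected one. Anchor 1 shared 14 and 17 counts with the other 16 anchors, a ratio of 0.839 (0.570 to 1.19). With anchor 15, 122 kb away, it had 5 counts in replicate 1 and 0 in replicate 2, the only loop of the 31 found in 1 replicate only. With anchor 3 in intron 1 it had 2 and 3. With anchor 7, 48.0 kb away, it had none in either replicate where 4.81 were expected, the highest expectation among the 44 pairs of the window without counts. A summed count of 0 has an exact Poisson upper limit of 3.69, which lies below that expectation, in a pair singled out for it. Together with anchors 10 and 15, anchor 7 shared 9 counts with anchor 1, a ratio of 0.625 (0.286 to 1.19).

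Because no anchor covered the MIR21 hairpin, anchors 16 and 17, both within 5 kb of it, stood in for it. They shared 83 and 111 counts with anchors 1 to 15 in replicates 1 and 2, a ratio of 1.40 (1.21 to 1.61). With the VMP1 start they shared 2 and 2 counts, a ratio of 1.47 (0.402 to 3.77), so that an excess or a deficit of contact was not detectable at this depth. The partners of these anchors lay on their 5′ side, where anchor 16 had 150 of its 175 counts and anchor 17 had 98 of its 129.

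**Figure D5:**
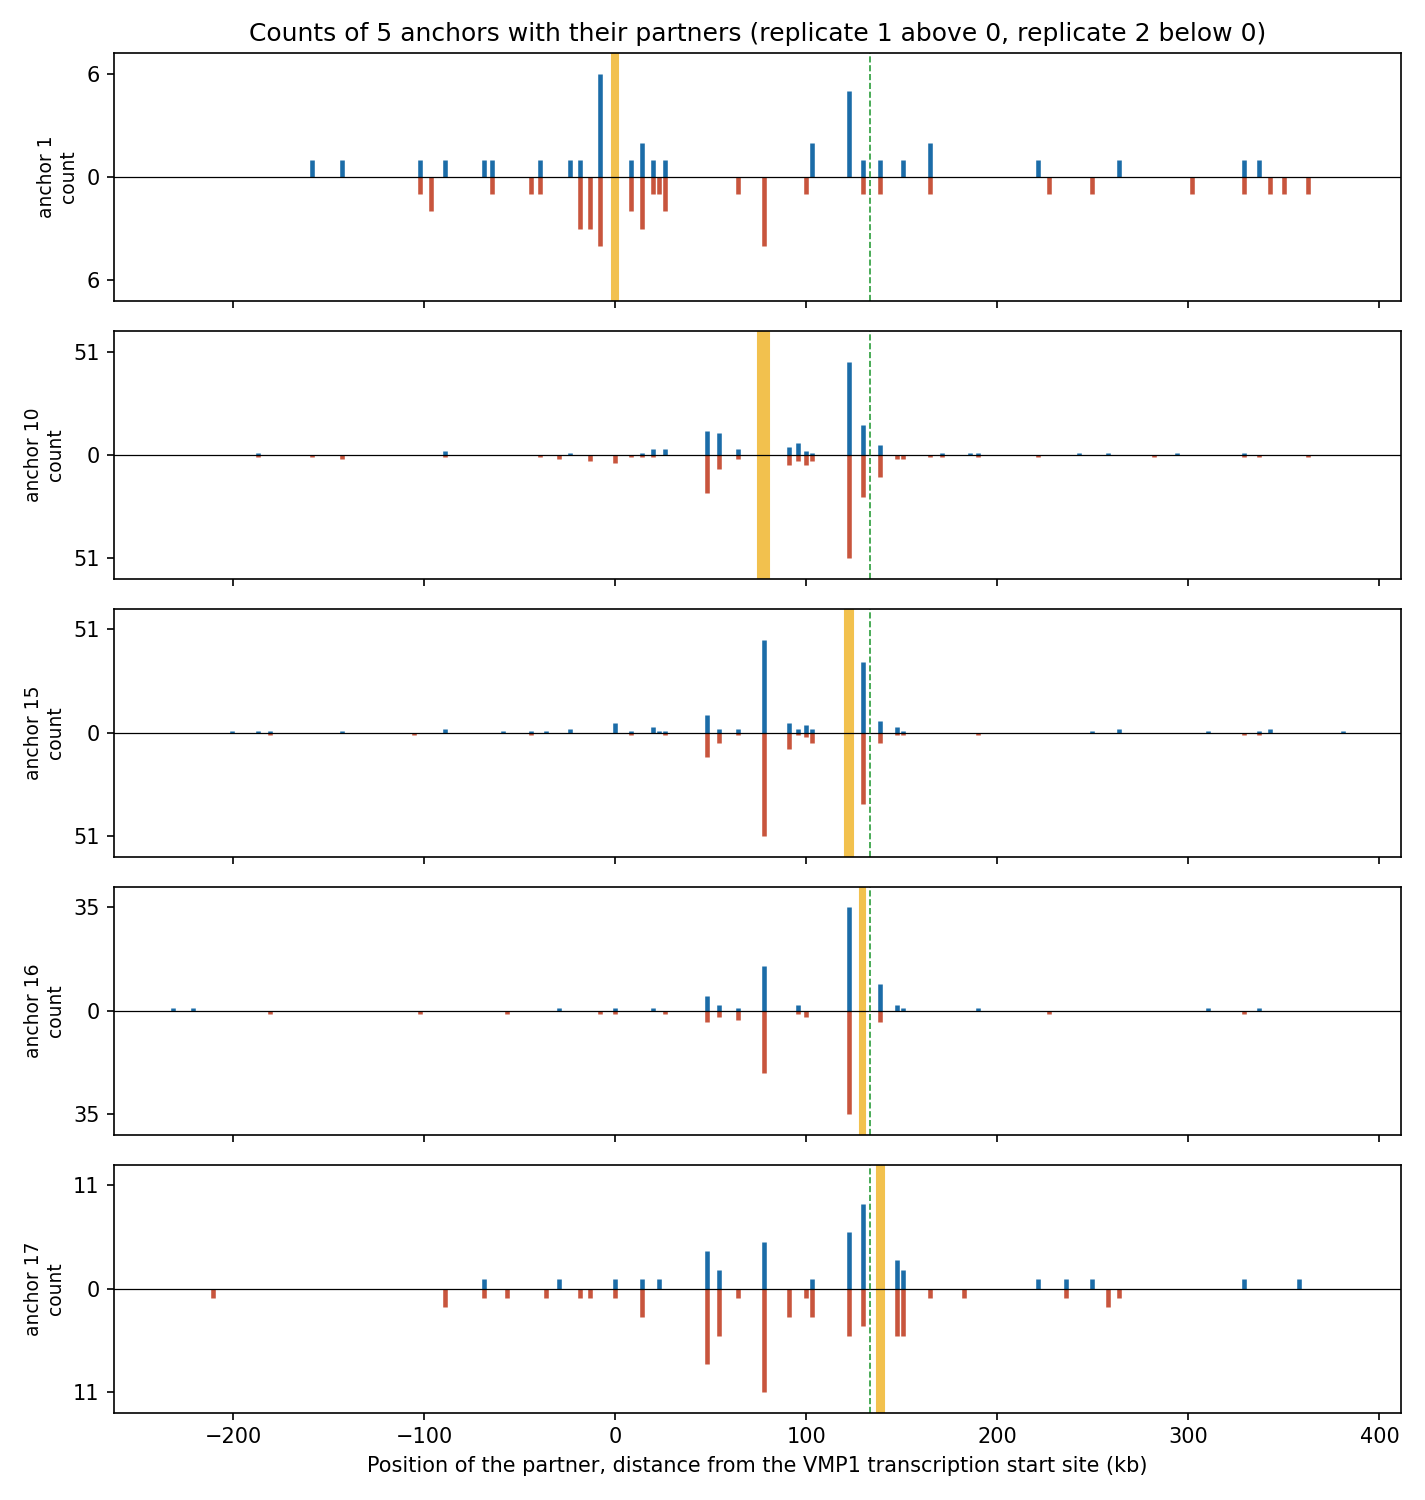
Counts of anchors 1, 10, 15, 16 and 17 with each of their partners in the plotted range, against the partner's distance from the VMP1 transcription start site in kb, each panel with its own count axis. Blue bars above 0 are replicate 1, red bars below 0 replicate 2, the yellow band is the anchor itself and the dashed green line MIR21. Anchors 10, 15 and 16 reach their highest counts with each other in both replicates, whereas no partner of anchor 1 exceeded 6 counts in a replicate.

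Beyond the window the counts fell off unevenly. The first 50 kb downstream held 38 and 38 counts in replicates 1 and 2, a ratio of 1.11 (0.875 to 1.39), and the first 50 kb upstream held 20 and 36, a ratio of 0.745 (0.563 to 0.967). From 200 to 500 kb the ratio was 0.405 downstream and 0.702 upstream. These ratios stood beside 1.30 (1.20 to 1.41) inside the window. Each anchor's expected total was close to its observed total, so an excess inside the window lowers the ratios outside it. The ratios outside are therefore not a result separate from the excess inside, for which the window was chosen. Of the loops of at least 5 counts 4 left the window: the pair of anchor 1 described above and 3 to anchors just downstream. With the outside anchor at chr17:57931504-57933926, anchor 17 had 3 and 5 counts and a ratio of 1.39 (0.599 to 2.73). Anchor 7 had 3 and 3 with the same partner at 99.8 kb, a ratio of 7.43 (2.73 to 16.2). With the outside anchor at chr17:57934909-57936641, anchor 17 had 2 and 5 counts and a ratio of 2.53 (1.02 to 5.22).

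Promoter anchors of other protein-coding genes held 87 of the 1112 counts of the locus. Whether this differs from what other anchors outside the window held was not tested. The promoter anchors of 25 genes outside the window were reached by 70 loops with 36 and 51 counts, and no single loop held more than 3. CLTC, which encodes the clathrin heavy chain, had the most with 8 and 7 counts, a ratio of 0.688 (0.385 to 1.14). DHX40, an RNA helicase gene, had 6 and 4, a ratio of 0.767 (0.368 to 1.41). RPS6KB1, for the S6 kinase downstream of mTOR, and TUBD1, for delta tubulin, share their promoter anchors and had 3 and 6, a ratio of 0.694 (0.317 to 1.32). None of these intervals excluded the expected count. PPM1D, for the p53-regulated phosphatase WIP1, had 3 and 3 counts and a ratio of 1.95 (0.716 to 4.25), and CUEDC1 had 4 and 1 and a ratio of 1.82 (0.591 to 4.24). RNFT1 had 2 and 3, CA4, a membrane-bound carbonic anhydrase gene, had 0 and 4, and IGBP1C and TEX14, which share their anchors, had 1 and 3.

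The replicates were compared loop by loop with a two-sided exact binomial test against the replicates' shares of all loop counts. Of the 13 loops of the locus with a summed count of at least 10, 0 were called after Benjamini-Hochberg adjustment over all 3189 loops tested, and 0 had an unadjusted p under 0.05, with a smallest p of 0.162 (adjusted p of 1). Over the genome 0 of 3189, or 0%, were called, and 120, or 3.76%, had an unadjusted p under 0.05. The test has little power at such counts: in simulated data it called 4 of 200 loops whose odds were changed by 3-fold. Of the 15 loops with the highest sums 8 were higher in replicate 2, 6 in replicate 1 and 1 equal.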

How the data were processed

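The 2 deposited tables, 1 per replicate, were used, each with 1 row per pair of anchors on the same chromosome and an integer count of paired-end tags, as the authors' loop caller hichipper gave it after HiC-Pro processing (hg19; versions and anchor source not given in the sources used here). Deposited counts totalled 1885470 and 2131462, same-anchor rows included. The members and gene lists were chosen with earlier results of these data known. Loops, sums and intervals (exact Poisson or Clopper-Pearson, 95%) were computed in Python 3.11.15 with pandas 2.3.3 and scipy 1.17.1. Expected counts came from 60 distance classes and anchor weights balanced over 20 rounds across all anchor pairs up to 2 Mb, per replicate, with the loop's own count left out of the observed and the fitted depth of its anchors and 0.5 added to each. Sums over several pairs used the weights with all counts kept, so that each anchor's expected total was close to its observed total. In data simulated for chromosome 17, replicate 1, the median fitted over true ratio was 0.994 for 200 loops raised 5-fold and 1.08 for 10-fold. Distances are between midpoints. Genes came from GENCODE release 44 on hg19, and promoters were anchors within 2.5 kb of a start. Named were all window anchors, the 15 loops with the highest sums, loops of at least 5 counts of anchors at the VMP1 start or next to MIR21, and up to 10 genes outside the window. Similar width means within 10%. A paired test of conditions does not exist here. The p-values compare these 2 libraries as binomial draws of independent tags and measure no spread among replicates.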

Additional observations from a re-analysis of the deposited data

How the results depend on the processing

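The expectation from distance alone turned the ratios of all loops of at least 5 counts that lay below 1: that of anchors 15 and 17 went from 0.386 to 13.6, that of anchors 16 and 17 from 0.597 to 8.25 and that of anchors 7 and 8 from 0.975 to 13.7. With a minimum count of 2 the mean number of loops per replicate was 63 in place of 296.5. The share of loops with a summed count of at least 5, 6.14%, became 2.57% at a threshold of 10, 14.4% for loops up to 200 kb, and 5.32% to 5.79% with either replicate left out. The ratio of the loop of anchors 10 and 15, 5.18, was 3.07 with its count kept in the depth of its anchors, 297 against distance alone and 4.94 to 5.42 with either replicate left out. It was 6.40 with the count taken out of the observed depth only, an alternative chosen after seeing the data. Intervals lay above the expected count for 12 of 31 loops, against 10 with the pair kept, 15 with the observed depth only and 31 for distance alone. The share of counts inside the window, 54.5%, was 75.8% for loops up to 200 kb, 18.2%, no longer a majority, with each loop weighted equally and 53.6% to 55.3% with either replicate left out. Loops under 100 kb, 25.9%, made up 61.2% by count, 63.3% at a summed count of at least 2 and 29.4% to 35.0% with either replicate left out. The 4 counts of anchors 16 and 17 with the VMP1 start were 2 to 2 with either replicate left out. These anchors stood in because no anchor covered MIR21. Counts with outside promoters, 87, were 148 for all annotated genes and 36 to 51 with either replicate left out. Replicate differences stayed at 0 in all 3 alternatives, with a smallest p of 0.0216 by the exact binomial test among 31 loops at a minimum sum of 5. The cause of these shifts was not tested beyond the construction of each alternative. Depth limits most single loops to a few tags. No paired analysis was possible because the series has 1 group.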

Other observations

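Anchor pairs of the window more than 2 Mb apart on chromosome 17 numbered 402, with 194 counts in replicate 1 and 211 in replicate 2, and no pair held more than 2. The pairs with 2 counts included anchor 7 with an anchor 8.60 Mb upstream, which had 1 count in each replicate.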
